A study of Mus musculus with 9 samples.

Results

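Radial glia are the neural stem cells of the embryonic cerebral cortex, and the expression of 10 genes that mark them was examined: Pax6, Sox2, Nes, Vim, Prom1, Fabp7, Slc1a3, Ptprz1, Tnc and Hopx. The genes were taken by symbol from a list of known radial glia genes, and all 10 were found, each as 1 entry, among 14670 genes listed. RNA-seq libraries had been prepared from the cerebral cortex of mouse embryos at embryonic day (E) 16.5, with 3 libraries for each of 3 genotypes: control, Fzd3 -/- (Fzd3 mutant) and Celsr3 -/- (Celsr3 mutant). Controls are labelled +/+, whereas the study's methods describe its controls as littermates that are wild-type or heterozygous, on a mixed C57Bl/6 and CD1 background. The labels give both mutations as -/- with no Cre driver, so that they are not limited to cortical cells. Fzd3 encodes a Frizzled receptor and Celsr3 an atypical cadherin, and both belong to the core planar cell polarity family.

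Radial glia line the ventricle, span the cortical wall with a long basal process and divide to give intermediate progenitors, neurons and, late in gestation, astrocytes and oligodendrocytes. Their identity rests on transcription factors such as Pax6 and Sox2, on the intermediate filaments nestin and vimentin, and on glial proteins that they share with the astrocytes that arise from them. Genes of the list are therefore not exclusive to a state of the cell, and some are used by later glial cells as well.

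Expression was measured as CPM, the count of reads on a gene after every library is scaled to nearly the same total (990141 to 1012199). Every value of a library was a whole multiple of 1 small step, within 0.05 of a step, and if a step is 1 read, the 9 libraries held between 39857305 and 69600589 reads on the listed genes. Hopx, the least abundant member, then rests on 166 to 321 reads in a library. Libraries of the same genotype differed by 4.57 to 9.77 times the sampling noise expected from reads, measured as the median chi-square over genes, so no pair was a repeat of the same library. The study's methods give 3 cortical samples for every genotype and a minimum of 3 animals for its work on animals. No label ties a library to an embryo, so p-values measure the spread between these libraries, which may be technical.

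The targeted genes were read first. Fzd3 stood at 58.0, 67.7 and 46.9 CPM in the 3 control libraries, 46.5, 39.8 and 59.6 CPM in Fzd3 mutants and 52.1, 61.1 and 54.8 CPM in Celsr3 mutants. These ranges overlap, and the study places the deletion of its Fzd3 mutant allele in exon 3, so that CPM over the whole gene does not check the Fzd3 genotype. Celsr3 stood at 196, 243 and 214 CPM in controls and 253, 213 and 255 CPM in Fzd3 mutants, but at 122, 139 and 118 CPM in the 3 libraries labelled Celsr3 mutant, below every other library (limma, log2 fold change -0.78 ± 0.09 s.e. against control, adjusted p = 0.00180).

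A pair of libraries stood apart from the others of their genotype in genes of other cell types. Celsr3 mutant library 4 held 87.6 CPM of Col3a1, a fibrillar collagen of meninges and vessel walls, whereas the 8 other libraries held 2.61 to 6.86 CPM. Fzd3 mutant library 3 held 5.23 CPM of Olig2, a transcription factor of oligodendrocyte precursors, against 11.6 and 11.4 CPM in the other Fzd3 mutant libraries. Controls held 3.66 to 5.34 CPM and Celsr3 mutants 2.15 to 4.83 CPM of Olig2, so library 3 lay inside the control range and the other Fzd3 mutant libraries above all others. Library 3 also held the lowest Fabp7 value of all 9 libraries. Red blood cell genes varied beyond this pair. Their sum was 1584 CPM in Celsr3 mutant library 2, beside 2416 and 2536 CPM in libraries 1 and 4. It was 1569 CPM in Fzd3 mutant library 3, beside 2285 and 2443 CPM in libraries 1 and 2, and 1765 to 2039 CPM in controls. Results for the members are given with all libraries and without Celsr3 mutant library 4 and Fzd3 mutant library 3, which does not cover that difference.

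Members were first placed by their level in control cortex, as CPM per kilobase of exon, a rough allowance for differences in gene length. The length is that of all annotated exons of a gene merged, such as 11.69 kilobases for Pax6, and not that of 1 transcript. Genes with many annotated forms are placed lower by this, so the order depends on the annotation. Fabp7, a fatty acid binding protein of radial glia, led with 370.3 ± 30.4 CPM per kilobase (mean ± s.d., n = 3), followed by Vim with 102 ± 3.84 and Ptprz1 with 47.4 ± 2.41. Nes (25.7 ± 3.01), Tnc (22.7 ± 2.93) and Sox2 (22.6 ± 2.25) came next, with libraries that overlap between neighbours in this order. Slc1a3 (14.5 ± 0.352), Prom1 (9.04 ± 0.389), Pax6 (6.57 ± 0.457) and Hopx (3.26 ± 0.451) followed, each clear of the next in every control library. In Fzd3 mutants Tnc, at 29.6 ± 0.900 CPM per kilobase, stood above Sox2 (17.4 ± 0.0871) and Nes (16.1 ± 1.21), and the latter pair overlapped.

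The main question was whether the 10 genes move together when Fzd3 or Celsr3 is lost. In Fzd3 mutants they did not: 5 fell (Pax6, Sox2, Nes, Vim and Prom1), 1 rose (Tnc), and 4 did not pass the threshold (Fabp7, Slc1a3, Ptprz1 and Hopx). The threshold was an adjusted p of 0.05 in a limma fit of log2(CPM + 0.5) to all 9 libraries, adjusted by Benjamini-Hochberg over the 14670 genes. Of all genes, 14.8% fell and 15.0% rose at this threshold, so that with 5 of 10 lower and 1 of 10 higher the members stood above that share for falls and near it for rises. In bulk tissue, fewer cells of a type and less RNA per cell cannot be told apart. The values of each gene follow, ordered by the role of its product.

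Transcription factors of the progenitor state came first. Pax6, the paired-box factor that specifies dorsal telencephalic progenitors, stood at 76.8, 82.3 and 71.6 CPM in control libraries, 42.5, 47.9 and 50.6 CPM in Fzd3 mutants and 68.0, 73.8 and 79.3 CPM in Celsr3 mutants. All Fzd3 mutant libraries lay below all others, and the Celsr3 mutant and control libraries overlapped. Against control, Pax6 fell in Fzd3 mutants by 0.70 on the log2 scale (s.e. 0.0777, limma adjusted p = 0.000120), to 61.2% ± 5.39 (s.d., n = 3) of the control mean. Sox2, an HMG-box factor needed to keep neural stem cells undifferentiated, stood at 47.8, 50.2 and 41.2 CPM in controls, 35.9, 35.7 and 35.5 CPM in Fzd3 mutants and 43.4, 47.5 and 47.7 CPM in Celsr3 mutants. The 3 Fzd3 mutant libraries were nearly identical and again the lowest of the 9. Sox2 fell by 0.37 on the log2 scale (s.e. 0.0711, limma adjusted p = 0.00307), a smaller change than that of Pax6, and reached 77.0% ± 0.386 of control.

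Hopx, a homeodomain protein without DNA binding that marks outer radial glia in primates and is low in mouse cortex at this stage, stood at 5.41, 5.27 and 4.16 CPM in controls, 4.18, 4.54 and 4.10 CPM in Fzd3 mutants and 2.97, 3.10 and 3.56 CPM in Celsr3 mutants. The Celsr3 mutant libraries were the 3 lowest, while those of Fzd3 mutants overlapped with controls. Neither difference from control passed (limma, log2 fold change -0.18, adjusted p = 0.293 in Fzd3 mutants, and -0.55, adjusted p = 0.201 in Celsr3 mutants). At this low level the pseudocount shrinks the log2 difference.

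The filament and membrane proteins that give radial glia their form followed. Nes encodes nestin, the intermediate filament of neural progenitors, and stood at 161, 186 and 147 CPM in controls, 97.7, 100.03 and 112 CPM in Fzd3 mutants and 142, 152 and 169 CPM in Celsr3 mutants. Vim encodes vimentin, the filament that copolymerises with nestin, and stood at 482, 502 and 465 CPM in controls, 307, 319 and 313 CPM in Fzd3 mutants and 414, 454 and 511 CPM in Celsr3 mutants. In both genes the Fzd3 mutant libraries were the lowest and did not reach any other library, and the Celsr3 mutant libraries overlapped with controls. Nes fell by 0.67 (s.e. 0.0876, limma adjusted p = 0.000325) and Vim by 0.62 on the log2 scale (s.e. 0.0648, limma adjusted p = 8.14e-05), to 62.7% ± 4.73 and 64.8% ± 1.32 of control. Prom1, which encodes the pentaspan protein prominin of the apical membrane, stood at 62.8, 68.0 and 63.7 CPM in controls, 42.4, 44.9 and 51.3 CPM in Fzd3 mutants and 55.4, 58.6 and 64.3 CPM in Celsr3 mutants. Its fall in Fzd3 mutants was 0.49 on the log2 scale (s.e. 0.0753, limma adjusted p = 0.000866), and no Fzd3 mutant library reached a control library.

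**Figure D1:**
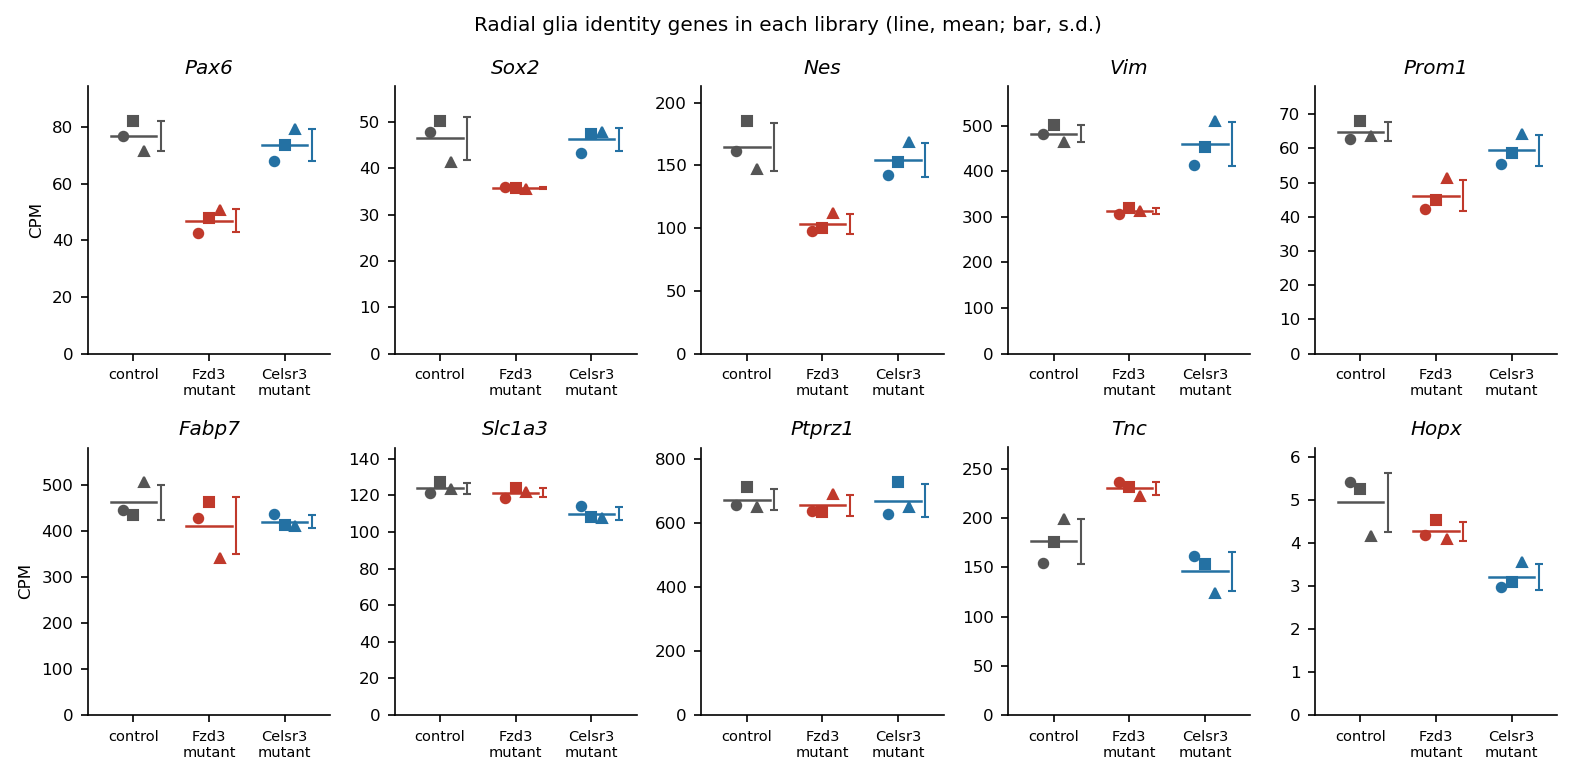
CPM of the 10 genes in each library, with the mean (line) and s.d. (bar) of the 3 libraries per genotype and an axis that starts at 0 in each panel; circles, squares and triangles are the libraries in the order of their numbers. The Fzd3 mutant libraries lie below all others for Pax6, Sox2, Nes, Vim and Prom1 and above all others for Tnc.

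Genes for the glial functions of the cell were read next. Fabp7, which binds the fatty acids of radial glia and is induced by Notch signalling, stood at 447, 435 and 506 CPM in controls, 429, 463 and 343 CPM in Fzd3 mutants and 437, 414 and 410.4 CPM in Celsr3 mutants. Its low value in Fzd3 mutants came from library 3, and the other 2 libraries lay within or just below the control range. Slc1a3, the glutamate transporter GLAST, stood at 121, 127 and 124 CPM in controls, 119, 124 and 122 CPM in Fzd3 mutants and 114, 109 and 108 CPM in Celsr3 mutants. Fzd3 mutant and control libraries of Slc1a3 overlapped, and the Celsr3 mutant libraries lay below both. Against control in Fzd3 mutants, neither gene passed (limma, log2 fold change -0.18 with adjusted p = 0.180 for Fabp7, and -0.03 with adjusted p = 0.638 for Slc1a3). For Slc1a3 the 95% confidence interval ran from -0.12 to 0.06, which leaves out falls of the size measured for the 5 genes above. For Fabp7 it ran from -0.39 to 0.03, which includes the fall measured for Sox2. The Fabp7 value rested on single libraries. It was -0.05 without Fzd3 mutant library 3 (limma adjusted p = 0.593) and -0.27 without Fzd3 mutant library 2 (limma adjusted p = 0.0628).

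The last pair acts outside the cell or at its surface. Ptprz1, a receptor tyrosine phosphatase that also exists as a secreted proteoglycan, stood at 659, 714 and 651 CPM in controls, 640.1, 635 and 693 CPM in Fzd3 mutants and 631, 728 and 653 CPM in Celsr3 mutants. All 3 genotypes overlapped, and the log2 fold change in Fzd3 mutants was -0.04 (95% confidence interval -0.17 to 0.09, limma adjusted p = 0.655). Tnc encodes tenascin C, an extracellular matrix protein to which Ptprz1 binds, and stood at 154, 176 and 199 CPM in controls, 236, 232 and 222 CPM in Fzd3 mutants and 161, 154 and 123 CPM in Celsr3 mutants. The Fzd3 mutant libraries were the 3 highest, and the other genotypes overlapped. Tnc rose by 0.39 on the log2 scale (s.e. 0.102, limma adjusted p = 0.0146), to 131% ± 3.97 of control. This call was the least secure of the 6: without Fzd3 mutant library 1 the adjusted p was 0.0544, without control library 1 it was 0.0592, and with no sharing of variance between genes it was 0.0833. Over all 19 alternative settings the adjusted p ran from 0.00437 to 0.0833 and the log2 fold change from 0.30 to 0.48.

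Taking the libraries without a model, 5 members were lower in all Fzd3 mutant than in all control libraries and 1 was higher, the same 6 genes that passed the fit. The same holds for 22.2% (lower) and 21.6% (higher) of all genes. For each of these 6, a two-sided exact permutation test gave p = 0.1, the smallest value that 3 against 3 libraries can give. Libraries that do not overlap always give this value, so the test adds nothing to the separation itself. Without Celsr3 mutant library 4 and Fzd3 mutant library 3, again 5 members fell and 1 rose, beside 13.8% and 14.9% of all genes in that fit.

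In Celsr3 mutants, 0 of 10 members passed the limma threshold in either direction, beside 0.177% of all genes lower and 0.130% higher. At an unadjusted p under 0.05, 3 members were counted (Slc1a3, Hopx and Tnc, all lower), beside 5.45% of all genes. Slc1a3 differed by -0.17 on the log2 scale (95% confidence interval -0.26 to -0.08, limma adjusted p = 0.257), and its Celsr3 mutant libraries stood at 88.8% ± 2.79 of the control mean. Hopx stood at 64.9% ± 6.23 of control and Tnc at 82.9% ± 11.3, and the latter overlapped with controls. The lowest Tnc value came from Celsr3 mutant library 4, which stands apart, at 123 CPM beside 161 and 154 CPM. Over the 19 alternative settings the log2 fold change of Tnc ran from -0.37 to -0.12, beside -0.27 in the main fit. The members whose 3 Celsr3 mutant libraries all lay below all controls were Slc1a3 and Hopx, 2 of 10, beside 5.27% of all genes, and 0 of 10 lay above, beside 5.14%. For the 5 genes that fell in Fzd3 mutants, the Celsr3 mutant values ran from 91.7% (Prom1) to 99.5% (Sox2) of the control mean, and the widest of their intervals was that of Nes, from -0.28 to 0.10 on the log2 scale.

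The mutants were also compared with each other, in the same fit. Against Celsr3 mutants, the Fzd3 mutants were lower in Pax6, Sox2, Nes, Vim and Prom1 and higher in Tnc, Slc1a3 and Hopx. These are 5 of 10 lower, beside 14.3% of all genes, and 3 of 10 higher, beside 15.3%. Pax6 differed by -0.64 (s.e. 0.0777, limma adjusted p = 0.000244) and Tnc by 0.66 on the log2 scale (s.e. 0.102, limma adjusted p = 0.000960), and in both genes the 2 sets of libraries did not overlap. The differences of Slc1a3 (0.14, limma adjusted p = 0.0219) and Hopx (0.37, limma adjusted p = 0.0467) were close to the threshold. Without the 2 libraries that stand apart neither passed, at 0.13 for Slc1a3 (limma adjusted p = 0.121) and 0.46 for Hopx (limma adjusted p = 0.0599). That fit left 5 lower and 1 higher, beside 10.3% and 12.1% of all genes. Over all alternative settings the difference ran from 0.13 to 0.17 for Slc1a3 and from 0.32 to 0.50 for Hopx. Leaving out 1 library at a time ended the call for Slc1a3 without Fzd3 mutant library 2 or Celsr3 mutant library 2 or 4, and the call for Hopx without any of the Fzd3 mutant libraries, Celsr3 mutant library 1 or 2, or control library 1 or 2. With a library left out, the adjusted p reached 0.0809 for Slc1a3 and 0.138 for Hopx. The call for Slc1a3 also ended with no variance trend (adjusted p = 0.0533) and that for Hopx with no sharing of variance between genes (adjusted p = 0.0621). The comparisons of each mutant with control share the same 3 control libraries, so their values are set side by side and not correlated.

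**Figure D2:**
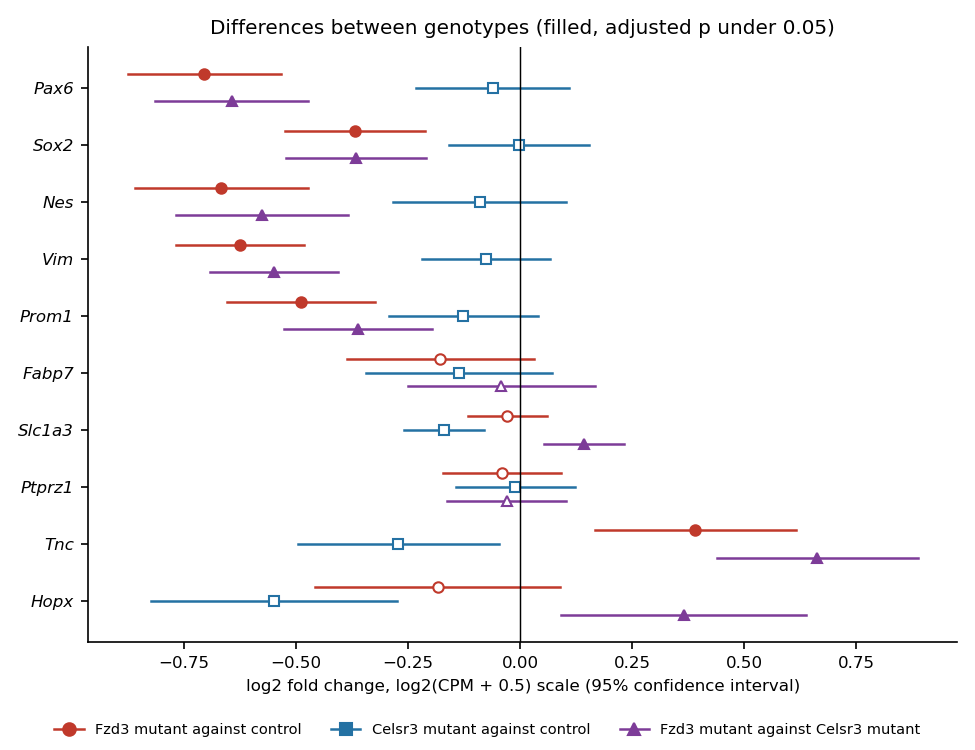
Log2 fold change of each gene with its 95% confidence interval in the 3 comparisons, on the log2(CPM + 0.5) scale; filled symbols passed an adjusted p of 0.05. In Fzd3 mutants against control the values run from -0.70 (Pax6) to 0.39 (Tnc), and in Celsr3 mutants against control no symbol is filled although the intervals of Slc1a3, Tnc and Hopx lie below 0.

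How uniform the list was can be read from the spread of its log2 fold changes. In Fzd3 mutants against control they ran from -0.70 to 0.39, with a median of -0.28 and an s.d. over the 10 genes of 0.35, where the standard error of a gene was between 0.0405 and 0.125. All 14670 genes had a median of 0.00 and an s.d. of 0.40 in the same comparison. In Celsr3 mutants the members ran from -0.55 to 0.00, with a median of -0.11 and an s.d. of 0.16, beside a median of 0.00 and an s.d. of 0.19 for all genes. All 10 members lay below 0 there, as 51.3% of all genes did. The values of Sox2 (-0.0030) and Ptprz1 (-0.011) were near 0 and changed sign in some alternative settings. In Fzd3 mutants Pax6, Nes and Vim lay between -0.70 and -0.62, Prom1 and Sox2 at -0.49 and -0.37, Fabp7, Slc1a3, Ptprz1 and Hopx between -0.18 and -0.03, and Tnc alone above 0.

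Ratios between members within a library do not depend on the scaling of that library. The pairs below were chosen after their values were seen and carry no test. The ratio of Pax6 to Slc1a3 CPM was 0.358, 0.386 and 0.416 in the Fzd3 mutant libraries, beside 0.633, 0.647 and 0.579 in those of control and 0.596, 0.680 and 0.736 in those of Celsr3 mutants. The ratio of Tnc to Pax6 was 5.56, 4.83 and 4.39 in the Fzd3 mutant libraries, beside 2.0, 2.13 and 2.79 in those of control and 2.37, 2.08 and 1.56 in those of Celsr3 mutants. For both ratios the Fzd3 mutant libraries were separate from all others, whereas the other genotypes overlapped. The ratio of Nes to Vim, the 2 filaments, was 0.341 ± 0.0270 (s.d., n = 3) for control, 0.330 ± 0.0251 for the Fzd3 mutant and 0.336 ± 0.00624 for the Celsr3 mutant, with overlap of all 3 genotypes. That of Sox2 to Pax6, the 2 progenitor factors, was 0.603 ± 0.0241 for control, 0.764 ± 0.0732 for the Fzd3 mutant and 0.628 ± 0.0224 for the Celsr3 mutant, and every Fzd3 mutant library lay above every other.

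**Figure D3:**
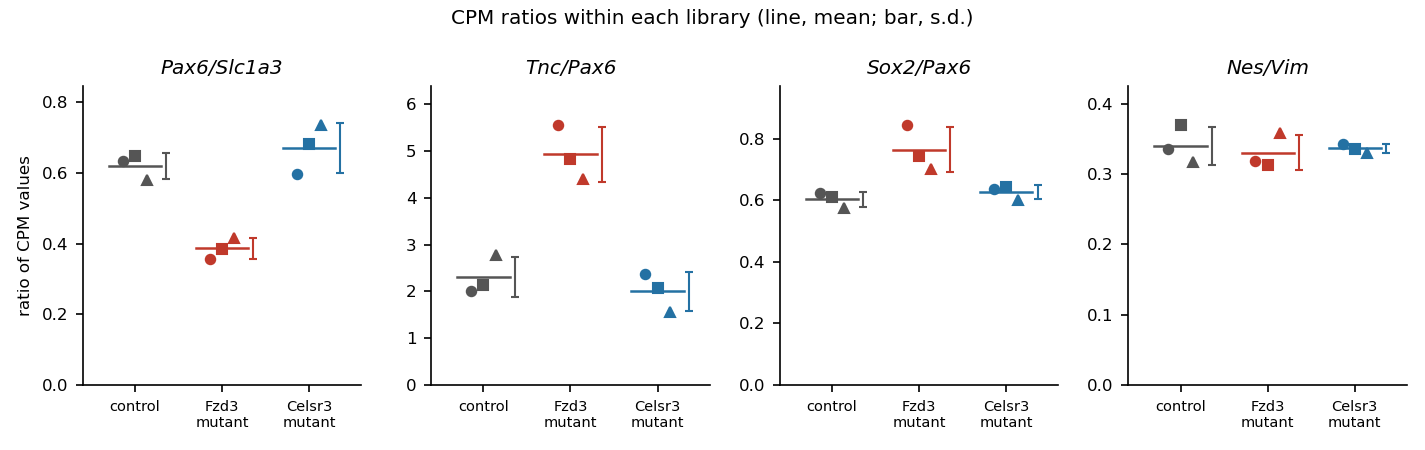
Ratio of the CPM of 2 members in each library, with the mean (line) and s.d. (bar) of 3 libraries per genotype and axes that start at 0. Pax6/Slc1a3 is lower and Tnc/Pax6 and Sox2/Pax6 are higher in all Fzd3 mutant libraries than in any other, and Nes/Vim overlaps between genotypes.

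The proximal promoters of the members were compared because Pax6, Sox2, Nes, Vim and Prom1 fell together while Tnc rose. All 10 genes matched the RefSeq promoter windows (GRCm38.p6), which hold 250 bases before and 50 after a start site, and gave 14 windows, since Pax6, Hopx, Tnc and Prom1 have 2 start sites each. Searched on both strands, TGGGAA, the core letters bound by the Notch effector RBPJ, occurred in 4 of the 14 windows (Tnc in both, Prom1 and Fabp7) and in 25.6% of the 32851 windows of the table. The 2 Tnc windows overlap and share 1 of these sites, so the 4 windows stand for 3 genes. ACAATG, the core letters of Sox factors, occurred in 0 of 14 and in 12.6% of all windows, and CACGTG, an E-box that reads the same on both strands, in 1 of 14 (Hopx) and in 7.15%. No 2 of these motifs overlapped in a member's window. Of the 7 windows of the 5 genes that fell, 1 held any of the 3 motifs, beside 39.5% of all windows of the table. Windows of Nes and Vim, which fell and hold none, are shown with those of Prom1, which fell and holds a match, and Tnc, which rose and holds 2; capitals mark TGGGAA or its reverse complement TTCCCA. The Nes window lies at chr3:87970843-87971142 and the Vim window at chr2:13574061-13574360, both on the plus strand, and those of Prom1 (chr5:44101687-44101986) and Tnc (chr4:64046966-64047265) lie on the minus strand.
Nes: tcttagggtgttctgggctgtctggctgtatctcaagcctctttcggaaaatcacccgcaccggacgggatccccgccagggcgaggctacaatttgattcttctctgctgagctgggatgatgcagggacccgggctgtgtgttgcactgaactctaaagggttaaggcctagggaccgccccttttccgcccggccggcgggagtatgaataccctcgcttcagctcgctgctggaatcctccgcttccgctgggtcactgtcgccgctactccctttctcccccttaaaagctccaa
Vim: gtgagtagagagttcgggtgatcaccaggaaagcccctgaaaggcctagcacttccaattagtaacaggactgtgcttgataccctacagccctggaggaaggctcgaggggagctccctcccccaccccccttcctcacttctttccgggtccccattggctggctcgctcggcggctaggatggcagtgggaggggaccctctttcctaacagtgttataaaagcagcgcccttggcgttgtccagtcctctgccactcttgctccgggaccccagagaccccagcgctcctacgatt
Prom1: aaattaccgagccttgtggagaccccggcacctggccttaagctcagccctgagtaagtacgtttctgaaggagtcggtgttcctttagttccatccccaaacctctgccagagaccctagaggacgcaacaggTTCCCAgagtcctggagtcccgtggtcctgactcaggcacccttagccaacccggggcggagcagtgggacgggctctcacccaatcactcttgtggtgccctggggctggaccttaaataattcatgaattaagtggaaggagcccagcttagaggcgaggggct
Tnc: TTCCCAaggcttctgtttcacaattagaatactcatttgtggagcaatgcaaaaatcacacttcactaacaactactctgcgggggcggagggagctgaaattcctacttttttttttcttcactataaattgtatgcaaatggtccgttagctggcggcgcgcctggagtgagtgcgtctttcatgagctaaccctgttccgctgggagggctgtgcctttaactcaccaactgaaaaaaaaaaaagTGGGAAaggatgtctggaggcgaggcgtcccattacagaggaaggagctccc
In Prom1 the match begins 116 bases before the start site, and in Tnc the matches begin 250 and 2 bases before it. A match is a description of the letters and not of a bound site, and its absence here says nothing of the rest of the gene.

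The genes lie apart in the genome. In GENCODE coordinates of GRCm38, Pax6 (chr2:105668900-105697364, plus strand) and Vim (chr2:13573927-13582826, plus strand) share chromosome 2 and Sox2 (chr3:34650405-34652461, plus strand) and Nes (chr3:87971078-87980451, plus strand) share chromosome 3. Prom1 (chr5:43993620-44102032, minus strand) and Hopx (chr5:77086988-77115121, minus strand) share chromosome 5. Tnc lies at chr4:63959785-64047015, Ptprz1 at chr6:22875502-23052916, Fabp7 at chr10:57784881-57788450 and Slc1a3 at chr15:8634124-8710764.

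Other genes of the apical progenitor give the setting of the members. Counts in the lists below stand beside the shares of all genes given above, 14.8% lower and 15.0% higher in Fzd3 mutants and 0.177% lower and 0.130% higher in Celsr3 mutants. Of 30 further apical progenitor and radial glia genes, 29 were listed, and in Fzd3 mutants 23 fell, 1 rose (Mt3) and 5 did not pass, with a median log2 fold change of -0.44, beside -0.28 for the members. The 4 most abundant of them fell: Cdh2, the cadherin of apical junctions (-0.16, limma adjusted p = 0.0218), Lhx2, a cortical selector factor (-0.22, adjusted p = 0.0247), Sfrp1, a secreted Wnt antagonist (-0.54, adjusted p = 0.000130), and Msi1, an RNA-binding protein of neural stem cells (-0.46, adjusted p = 0.000496). Of 8 genes associated with basal radial glia, the group to which Hopx, Ptprz1 and Tnc are often assigned, 6 were listed: 1 fell (Gas1, -0.64), 1 rose (Lifr, 0.56), and 4 did not pass, with a median of -0.01. Of 12 intermediate progenitor genes, all listed, 11 fell and 1 did not pass, with a median of -0.62. Eomes, their defining factor, went from 178 ± 15.5 to 113 ± 16.1 CPM (limma, -0.67, adjusted p = 0.000764). Of 14 proliferation genes, 14 fell, with a median of -0.74, among them Top2a (-0.79, limma adjusted p = 0.000231) and Mki67 (-0.81, adjusted p = 0.000200). Pax6, Nes and Vim thus fell by amounts between the median of the apical and that of the proliferation genes. In Celsr3 mutants, 0 genes of these 4 lists passed, near the share of all genes, and their medians ran from -0.06 to 0.09.

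**Figure D4:**
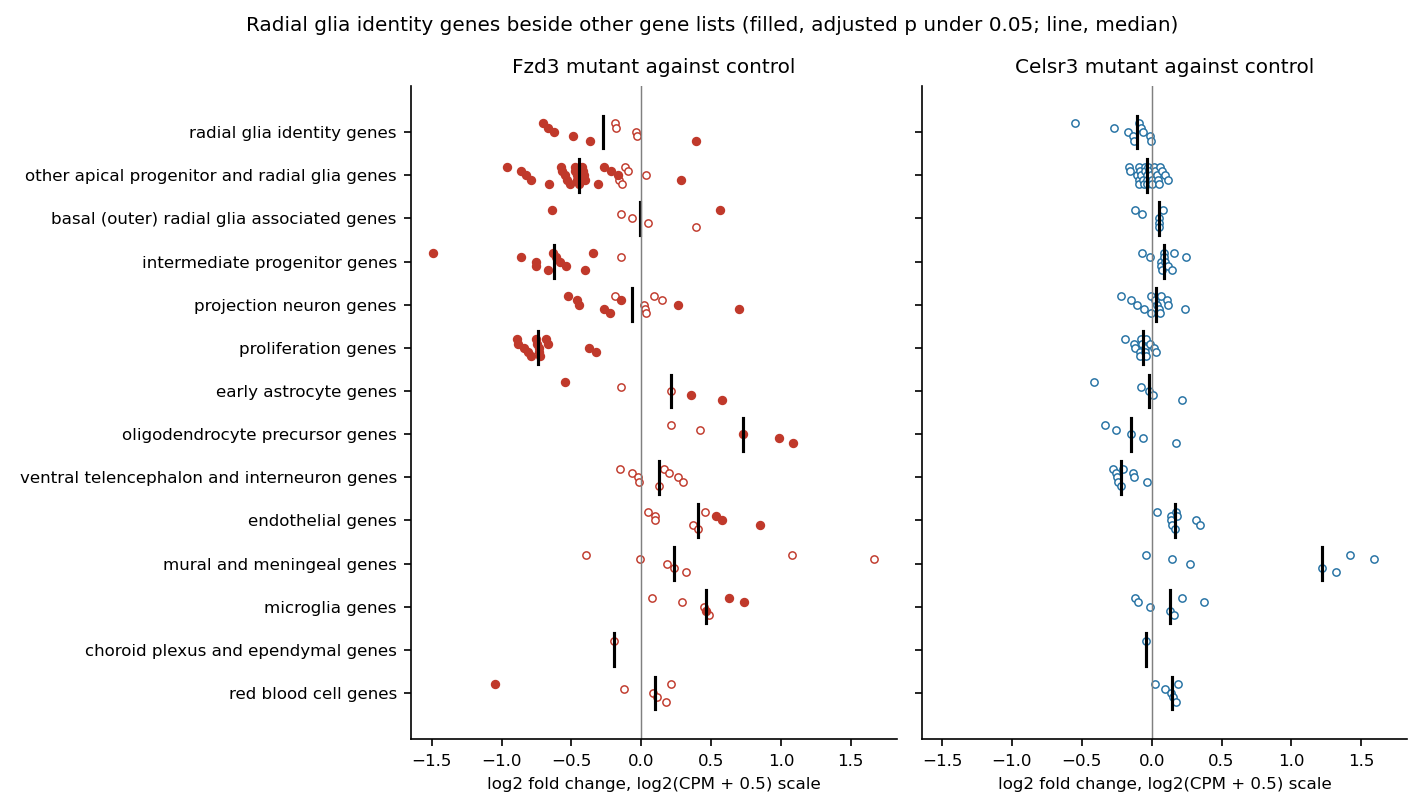
Log2 fold change of each gene, on the log2(CPM + 0.5) scale, in the 10 radial glia identity genes and 13 other lists, for Fzd3 (left) and Celsr3 mutants (right) against control; filled points passed an adjusted p of 0.05 and lines are medians. In Fzd3 mutants the members spread from -0.70 to 0.39, and in Celsr3 mutants no point is filled.

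Genes of other cells were read in the same way, since several members are shared with them. Of 5 listed early astrocyte genes (of 8; Gfap, Aqp4 and S100b were not listed), 2 rose in Fzd3 mutants (Slc1a2, 0.36, limma adjusted p = 0.0444, and Aldh1l1, 0.58, adjusted p = 0.0215), 1 fell (Fgfr3, -0.55, adjusted p = 0.00505) and 2 did not pass, with a median of 0.21. Their sum was 247, 225 and 272 CPM in controls, 279.8, 276 and 246 CPM in Fzd3 mutants and 239.8, 229 and 246 CPM in Celsr3 mutants, with Sparcl1 the most abundant. Slc1a2, the other glial glutamate transporter, passed close to the threshold in Fzd3 mutants, where its relative Slc1a3 did not pass. Libraries of Slc1a2 overlapped, with control library 3 (42.8 CPM) above Fzd3 mutant library 2 (41.4 CPM). Of 5 listed oligodendrocyte precursor genes (of 6), 3 rose (Pdgfra, Olig1 and Olig2) and 2 did not pass, with a median of 0.73. These precursors also express Ptprz1 and Tnc. Their sum, led by Pdgfra, was 71.2 and 62.6 CPM in Fzd3 mutant libraries 1 and 2 but 38.05 CPM in library 3, inside the control range of 27.6 to 39.1 CPM, whereas Tnc was high in all 3 of these libraries. The part of astrocyte and oligodendrocyte precursor genes in the Tnc result was not tested.

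Vascular and immune lists also held genes that rose in Fzd3 mutants, as 15.0% of all genes did. Of 9 endothelial genes 3 rose (Kdr, Flt1 and Cldn5) and 6 did not pass, with a median of 0.41, and their sum, led by Kdr, was 116, 118 and 119.9 CPM in controls against 171, 161 and 151 CPM. Of 7 listed microglia genes (of 8) 3 rose (Csf1r, C1qa and C1qc) and 4 did not pass, with a median of 0.46, and their sum, led by Csf1r, was 34.1, 40.02 and 38.1 CPM in controls against 60.0, 56.2 and 42.2 CPM. Of 7 listed mural and meningeal genes (of 9) 0 passed, with a median of 0.23 in Fzd3 mutants and 1.22 in Celsr3 mutants, and the latter was 0.24 without the 2 libraries that stand apart. Rgs5 was the most abundant of them by the mean over the 9 libraries. Their sum was 239.5 CPM in Celsr3 mutant library 4, where Col3a1 (87.6 CPM) and Col1a2 (49.4 CPM) stood above Rgs5 (41.7 CPM), beside 60.6 to 83.1 CPM in the 8 others. Vim is also made by vascular and meningeal cells, and it was highest of all libraries, at 511 CPM, in that library. The part of these cells in the Vim values was not tested.

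The medians of the remaining lists lay between -0.19 and 0.13 in Fzd3 mutants. Of 14 listed projection neuron genes (of 15), 6 fell in Fzd3 mutants, by 0.14 (Neurod2) to 0.52 (Sox5) on the log2 scale, beside 14.8% of all genes. Of its 4 most abundant genes, Dcx, a microtubule protein of young neurons, differed by 0.03 on the log2 scale (limma adjusted p = 0.689), and Map2, a microtubule protein of dendrites, by 0.02 (adjusted p = 0.812). Stmn2, a tubulin-binding protein of growing neurites, rose by 0.26 (adjusted p = 0.0276), and Neurod6, a factor of cortical excitatory neurons, fell by 0.22 (adjusted p = 0.00151). Of 9 listed ventral telencephalon and interneuron genes (of 11) 0 passed, with a median of 0.13 in Fzd3 and -0.22 in Celsr3 mutants. Of 6 listed red blood cell genes (of 8) 1 fell in Fzd3 mutants (Hbb-y) and 5 did not pass, and without Fzd3 mutant library 3 the count was 0 of 6. Of 6 choroid plexus and ependymal genes only Foxj1 was listed, at 2.48 ± 0.0454 CPM in controls, and it did not pass. In Celsr3 mutants 0 genes of any of the 13 lists passed the limma threshold. No listed gene of the 13 lists was at 0 in any library. Without the 2 libraries that stand apart, the genes that rose in Fzd3 mutants numbered 1 of 5 for early astrocytes, 4 of 5 for oligodendrocyte precursors, 5 of 9 for endothelium, 4 of 7 for mural and meningeal cells and 4 of 7 for microglia, and those that fell numbered 22 of 29 apical progenitor, 11 of 12 intermediate progenitor and 14 of 14 proliferation genes. In that fit 14.9% of all genes rose and 13.8% fell.

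**Figure D5:**
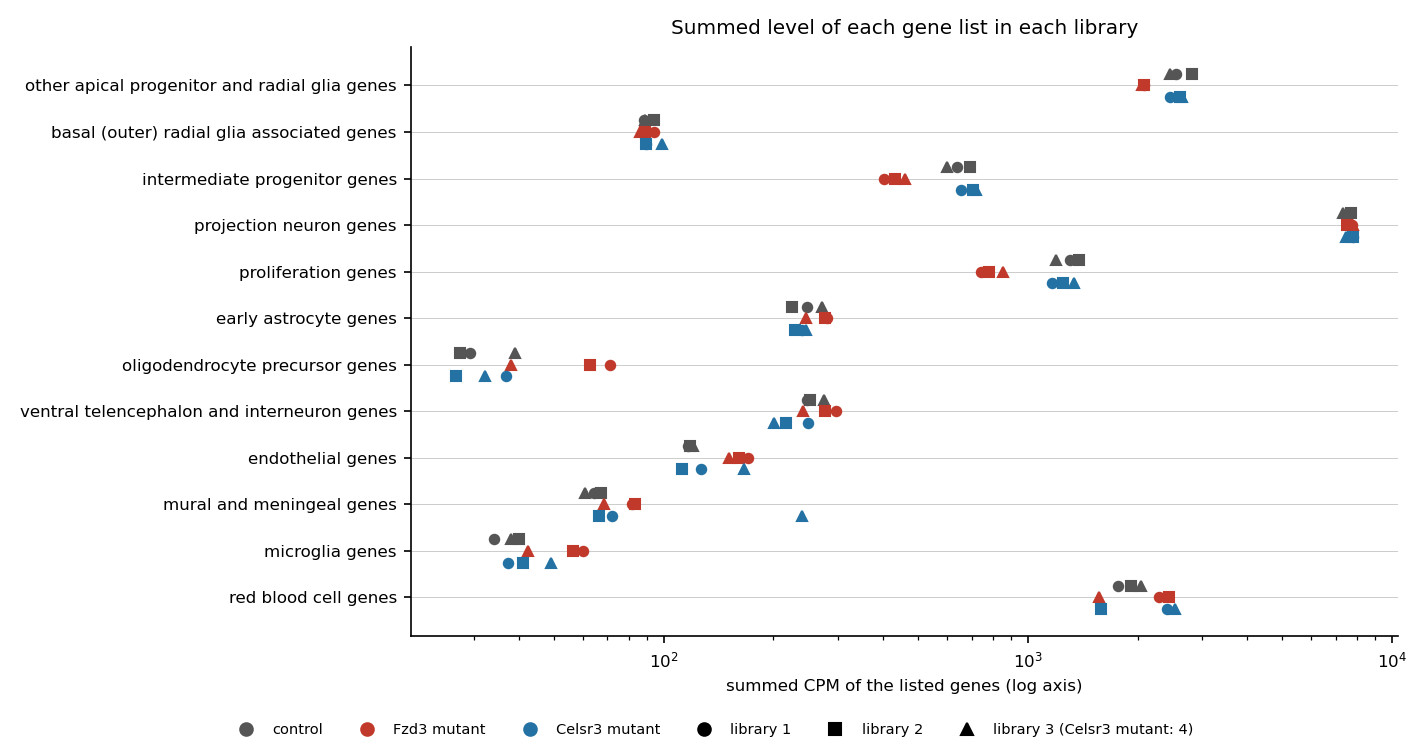
Summed CPM of the listed genes of 12 lists in each library, on a log axis, with colours for genotypes and symbols for library numbers. The sums of the apical progenitor, intermediate progenitor and proliferation genes are lowest in the 3 Fzd3 mutant libraries, and the mural and meningeal sum of Celsr3 mutant library 4 (239.5 CPM) stands away from the rest.

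Finally, the genes closest to the mean profile of the members were sought among 10011 other genes whose mean reached 10 CPM, by the root mean square difference of centred log2(CPM + 0.5) over the 9 libraries. The 5 closest were Hn1l, Mob2, Khdrbs2, Ltv1 and Fam222b, with differences of 0.0402 to 0.0465. They differed by -0.28 (Ltv1) to -0.21 (Mob2 and Fam222b) in Fzd3 mutants against control and by -0.14 (Fam222b) to -0.07 (Mob2) in Celsr3 mutants. These 5 were picked as the closest, so their differences are no standard for the members. The members lay 0.108 (Sox2) to 0.385 (Tnc) from their own mean, beside a median of 0.148 for the 10011 genes. Each member is part of that mean and the 10011 genes are not, so these distances are not like for like. The distance also counts the size of a change as well as its direction. Sox2, Ptprz1, Prom1 and Slc1a3 lay below that median, and the other members above it, Fabp7 only just (0.149).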

How the data were processed

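RNA-seq libraries had been made with Illumina protocols from dissected cortex and were sequenced and analysed by a company. Submitters' notes name FastQC, TopHat, TopHat2, Bowtie, Cufflinks 2.1.1 and edgeR 2.12, with no role or order, and the counting and strand setting are not given in the sources used here. CPM values were deposited with a further scaling factor per library, so that columns total 990141 to 1012199, and genes of little expression had been left out (lowest mean 0.54 CPM). Here, log2(CPM + 0.5) of all 9 libraries was fitted by genotype in limma 3.58.1 (R 4.3.3) with a variance trend, after a test on simulated data. All 14670 genes and all 10 members passed a mean of 0.5 CPM. Fold changes understate those of low genes. Exon lengths, with all annotated exons of a gene merged, came from GENCODE M21. Named by rule are all members, up to 4 of the most abundant genes of a list and the 5 genes of closest profile. Others singled out, among them list genes past the threshold and the marker genes of libraries that stand apart, were chosen after their values were seen. Not every result of the projection neuron list is reported here. Members and lists were chosen with earlier results of these data known. Alternatives changed the pseudocount, filter, scaling, libraries, replicate block and variance model.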

Additional observations from a re-analysis of the deposited data

How the results depend on the processing

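Under 19 alternatives, the falls of Pax6, Sox2, Nes, Vim and Prom1 in Fzd3 mutants passed the threshold in every setting, against control and against Celsr3 mutants. The count of members past it stayed at 5 to 6, 0, and 6 to 8 in the comparisons of Fzd3 mutant with control, Celsr3 mutant with control and both mutants. Fewer genes of the whole table passed in Celsr3 mutants against control with the replicate block (29) and with no sharing of variance (24), beside 45, and between mutants with the replicate block (2101, beside 4346). Between mutants Slc1a3 (log2 difference 0.13, limma adjusted p = 0.178) and Hopx (0.50, limma adjusted p = 0.0522) did not pass with that block. The libraries share only a number: deviations of libraries of the same number correlated at -0.20 to -0.07 between Fzd3 mutants and controls (3 pairs), at -0.08 and 0.19 between mutants and at -0.01 and 0.07 between Celsr3 mutants and controls (2 pairs each). The median of the members in Fzd3 mutants was -0.28 against control and moved to -0.37 with a mean of at least 5 CPM, which drops Hopx, and to between -0.37 and -0.26 with a library left out; between mutants it moved from -0.20 to -0.36 with that filter. In Celsr3 mutants it was -0.11, ran from -0.16 (without library 4) to -0.055 (without library 1) with a library left out, and was -0.16 with both libraries that stand apart left out, a choice made after seeing the data. Signs turned only in differences near 0 that never passed. Fabp7 between mutants ran from -0.13 to 0.085 with a library left out and was 0.067 without both. Ptprz1 in Celsr3 mutants was 0.00053 with rescaled columns, 0.015 with the replicate block, 0.0076 without both, and -0.072 to 0.032 with a library left out. With a library left out Ptprz1 ran from -0.072 to 0.031 between mutants and from -0.081 to 0.0013 in Fzd3 mutants. Sox2 in Celsr3 mutants was 0.0080 with rescaled columns and ran from -0.085 to 0.056 with a library left out. Other causes were not tested. With 3 libraries a genotype, small differences cannot be separated from the spread, and no scaling moved the median of all genes by more than 0.0154.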
